A study of Rattus norvegicus with 10 samples.

Results

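Egr1, Egr2, Egr3, Nab1, Nab2, Nr4a1, Nr4a2, Nr4a3 and Myc are early transcription factors and their corepressors, and they were followed in the area at risk of rat hearts, which is the muscle downstream of a coronary ligature that is starved of blood and then reperfused. They were chosen by gene symbol, and all 9 were found among the 31580 genes of the tissue count table and among the 39537 features of the nuclear matrices. The treatments were vehicle and a small molecule that the labels name by the code BT2. Tissue RNA was sequenced as 8 libraries, 2 each from vehicle at 4 h, BT2 at 4 h, vehicle at 24 h and BT2 at 24 h after myocardial ischaemia and reperfusion. Single nuclei were sequenced at 24 h as 1 library from vehicle and 1 library from BT2 at 100 mg/kg. Every group therefore carried the injury, and uninjured hearts were not analysed here. The sources used here do not give the tissue dose or the rats' strain, sex and age. They also do not say that replicate libraries were made from different rats, so p-values reflect only the spread between these libraries, which may be technical. The hours are counted from ligation in the sample titles and from the injury in the series text.

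The EGR proteins are zinc finger transcription factors whose genes are switched on within minutes of growth factor, stretch or ischaemic signals, through serum response factor and the MAP kinases. NAB1 and NAB2 bind EGR proteins and repress their activity, and NAB2 is itself an EGR target. The NR4A receptors are orphan nuclear receptors induced by calcium, cyclic AMP and adrenergic signals, and MYC, which pairs with MAX, drives genes of ribosome assembly and cell growth.

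Total counts of the tissue libraries ran from 10397310 to 24480984, and levels are given as CPM, library-scaled counts with TMM factors applied. All 9 genes passed the filter on low counts and were tested with edgeR's quasi-likelihood test among 15216 genes. A gene was called at a Benjamini-Hochberg adjusted p under 0.05. Each tissue group had n = 2 libraries, and errors of log2 fold changes are SE. The summed level of 10 cardiomyocyte markers was between 23640 and 75130 CPM in every library, and all 10 were tested. In tissue RNA, fewer cells of a type and less RNA per cell cannot be told apart.

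At 4 h, 5 of the 9 genes fell with BT2 and 0 rose, where 9.73% of all genes tested were called lower. They were Egr1, Egr2, Egr3, Nab2 and Myc. In 7 of 9 both BT2 libraries lay below both vehicle libraries, against 30.1% of all genes tested. At 24 h, 3 of 9 fell and 0 rose, where 20.7% of all genes were called lower, and these were Egr2, Nab2 and Myc. In those 3 genes the groups did not overlap, against 39.5% of all genes, so the 24 h count was nearer to the background than the 4 h count. The median log2 fold change of the 9 genes was -1.09 at 4 h and 0.02 at 24 h, and that of all genes tested was 0.00 and -0.01.

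**Figure D1:**
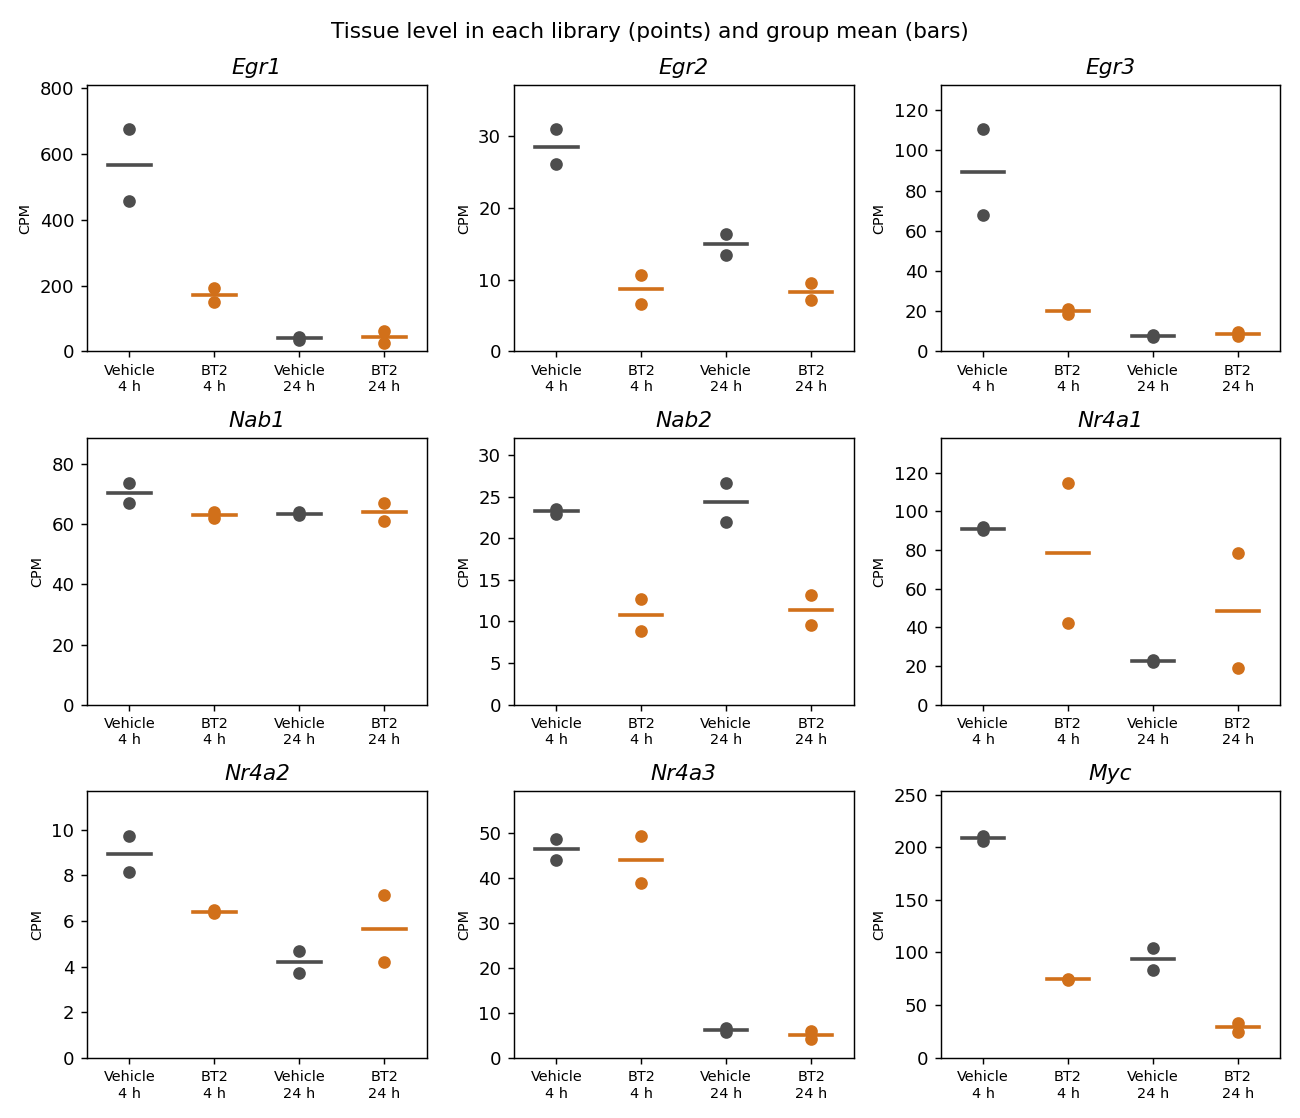
Level of each gene in CPM (vertical axis, starting at 0 in each panel) in the 8 tissue libraries. Points are single libraries, bars are group means of 2 libraries, vehicle is grey and BT2 orange. The BT2 points lie below the vehicle points for Egr1, Egr2, Egr3, Nab2 and Myc at 4 h, and the 2 BT2 points of Nr4a1 lie far apart at both times.

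The EGR genes were high in vehicle at 4 h and lower with BT2. Egr1 was at 458 and 676 CPM in the vehicle libraries at 4 h and at 150.5 and 192 CPM with BT2. At 24 h it was at 36.0 and 44.8 CPM in vehicle and at 63.4 and 27.0 CPM with BT2. The groups were apart at 4 h, while at 24 h the BT2 libraries lay on either side of the vehicle libraries. With BT2, Egr1 fell by 1.73 ± 0.39 on the log2 scale at 4 h (edgeR adjusted p = 0.0282), and at 24 h its log2 fold change was 0.16 ± 0.38 (edgeR adjusted p = 0.764). The 4 h call was lost without the filter on low counts (edgeR adjusted p = 0.127), without vehicle 4 h replicate 2 (0.161), without BT2 4 h replicate 1 (0.114) or 2 (0.117), and without vehicle 24 h replicate 1 (0.0509) or 2 (0.0525), which enter through the shared spread.

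Egr3 was at 67.9 and 110.5 CPM in vehicle at 4 h and at 18.9 and 21.2 CPM with BT2. At 24 h all 4 libraries were low, at 8.23 and 7.09 CPM in vehicle and 9.45 and 7.50 CPM with BT2. Egr3 had the lowest log2 fold change of the 9 genes at 4 h, -2.16 ± 0.23 (edgeR adjusted p = 0.00919), a 4.46-fold lower level, and 0.14 ± 0.24 at 24 h (edgeR adjusted p = 0.667). The 4 h call of Egr3 was kept in all 14 alternatives run, with adjusted p up to 0.0487.

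Egr2, the member best known from myelinating Schwann cells and macrophages, was lower with BT2 at both times. Its vehicle libraries were at 26.1 and 31.0 CPM at 4 h and 13.5 and 16.4 CPM at 24 h. With BT2 it was at 10.7 and 6.66 CPM at 4 h and at 9.54 and 7.18 CPM at 24 h. Both BT2 libraries were below both vehicle libraries at each time. Egr2 fell by 1.74 ± 0.25 at 4 h (edgeR adjusted p = 0.0109) and by 0.84 ± 0.24 at 24 h (edgeR adjusted p = 0.0248). The 4 h call was lost without vehicle 4 h replicate 2 (0.0503) or BT2 4 h replicate 2 (0.0571), and the 24 h call without vehicle 24 h replicate 2 (0.135) or BT2 24 h replicate 2 (0.136).

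The promoters of Egr1 and Egr2 are shown because these genes fell together at 4 h and share a feature of sequence. RefSeq promoter sequences on the GRCr8 build were found for 6 of the 9 genes (Egr1, Egr2, Nab1, Nab2, Nr4a1 and Nr4a2). The 250 bases before the annotated start of each promoter were searched on both strands. Only the Egr1 window lay outside the annotated span of its gene. The windows of Egr2, Nab1, Nab2, Nr4a1 and Nr4a2 overlapped the spans of their genes, so their matches may lie inside the gene. The motifs were the CArG box, which serum response factor binds and which 1.5% of 33469 rat promoters of the same length held, the full cyclic AMP response element TGACGTCA (1.59%) and its half-site TGACG (18.2%), which lies within the full element, the EGR site GCGNGGGCG (4.29%), the NR4A site AAAGGTCA (1.24%) and the E-box CACGTG bound by MYC and MAX (5.59%). In the Egr1 window (GRCr8 chr18:26736828-26737077, plus strand), the capitals mark 2 CArG boxes and 2 half-sites read on the opposite strand.
Egr1: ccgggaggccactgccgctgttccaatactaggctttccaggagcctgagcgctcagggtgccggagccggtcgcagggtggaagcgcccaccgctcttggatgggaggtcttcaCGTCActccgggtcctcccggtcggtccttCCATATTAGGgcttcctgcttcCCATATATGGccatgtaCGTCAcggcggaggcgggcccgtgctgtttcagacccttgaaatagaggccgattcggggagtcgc

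Egr2 held 1 CArG box in its window (GRCr8 chr20:21054442-21054691, minus strand), at the same distance as the nearer box of Egr1, from 83 to 74 bases before the start. Both genes also had a half-site from 66 to 62 bases before the start. The stretches around these boxes, with the box in capitals, are given on the gene's strand.
Egr1: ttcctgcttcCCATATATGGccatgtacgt
Egr2: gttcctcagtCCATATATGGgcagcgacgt

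Nab1 (GRCr8 chr9:56545392-56545641, plus strand) held 3 EGR sites and 1 half-site. Nr4a1 (GRCr8 chr7:134259888-134260137, plus strand) held 4 half-sites and 1 EGR site, and Nr4a2 held 1 half-site. The Nab2 window held no match to these motifs. One EGR site of Nab1 and the half-site of Nr4a1 nearest to its start are shown in capitals, since the level of Nab1 differed little between groups and that of Nr4a1 differed between replicates. A match is a stretch of letters, and binding was not measured.
Nab1: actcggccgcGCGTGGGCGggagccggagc
Nr4a1: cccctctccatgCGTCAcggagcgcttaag

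The NAB corepressors differed from each other. Nab2 was at 23.5 and 22.9 CPM in vehicle at 4 h and at 8.88 and 12.7 CPM with BT2. At 24 h it was at 21.9 and 26.7 CPM in vehicle and at 9.58 and 13.1 CPM with BT2. All 4 BT2 libraries lay below all 4 vehicle libraries. Nab2 fell by 1.09 ± 0.22 at 4 h (edgeR adjusted p = 0.0182) and by 1.10 ± 0.21 at 24 h (edgeR adjusted p = 0.00485) and the difference between the times had an edgeR adjusted p of 0.999. The 24 h call was kept in all 14 alternatives, and the 4 h call was lost without vehicle 4 h replicate 2 (0.0798) or BT2 4 h replicate 1 (0.0610) or 2 (0.0575). Nab1 stayed between 61.3 and 74.0 CPM over the 8 libraries. Its log2 fold change was -0.16 ± 0.10 at 4 h (edgeR adjusted p = 0.285) and 0.02 ± 0.10 at 24 h (edgeR adjusted p = 0.912).

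None of the 3 NR4A genes was called between BT2 and vehicle at either time. Nr4a3 (NOR1) was at 48.9 and 44.1 CPM in vehicle at 4 h and at 49.5 and 38.8 CPM with BT2. At 24 h it was at 6.63 and 5.76 CPM in vehicle and at 6.01 and 4.28 CPM with BT2. The groups overlapped at both times, with log2 fold changes of -0.07 ± 0.18 (edgeR adjusted p = 0.807) and -0.27 ± 0.20 (edgeR adjusted p = 0.307). Nr4a2 (NURR1) rested on few counts, from 75 to 158 per library. It was at 8.16 and 9.74 CPM in vehicle and 6.34 and 6.49 CPM with BT2 at 4 h, without overlap, and at 3.71 and 4.68 CPM in vehicle and 7.14 and 4.20 CPM with BT2 at 24 h, with overlap. Its log2 fold changes were -0.49 ± 0.28 (edgeR adjusted p = 0.261) and 0.43 ± 0.27 (edgeR adjusted p = 0.236).

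Nr4a1 (NUR77) differed more between the BT2 replicates than between the treatments. The vehicle libraries were close together, at 90.2 and 91.8 CPM at 4 h and 22.0 and 23.3 CPM at 24 h. With BT2 it was at 42.0 CPM in replicate 1 and 115 CPM in replicate 2 at 4 h, a 2.74-fold spread. At 24 h it was at 78.4 CPM in replicate 1 and 18.8 CPM in replicate 2, a 4.18-fold spread. The vehicle values thus lay between the BT2 values at both times. The log2 fold change was -0.21 ± 0.67 at 4 h (edgeR adjusted p = 0.864) and 1.10 ± 0.68 at 24 h (edgeR adjusted p = 0.244). At 24 h it was 1.79 (edgeR adjusted p = 0.0389) without BT2 24 h replicate 2 and -0.28 (0.74) without BT2 24 h replicate 1, so 1 library decided both the direction and the call.

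Myc was lower with BT2 at both times, with little spread between replicates. It was at 206 and 211 CPM in vehicle at 4 h and at 75.3 and 73.6 CPM with BT2. At 24 h it was at 104.6 and 83.6 CPM in vehicle and at 24.4 and 33.4 CPM with BT2. The BT2 level at 4 h was already below the vehicle level at 24 h. Myc fell by 1.49 ± 0.16 at 4 h (edgeR adjusted p = 0.00919), 2.80-fold, and by 1.70 ± 0.16 at 24 h (edgeR adjusted p = 0.000587), 3.26-fold. Both calls were kept in all 14 alternatives.

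**Figure D2:**
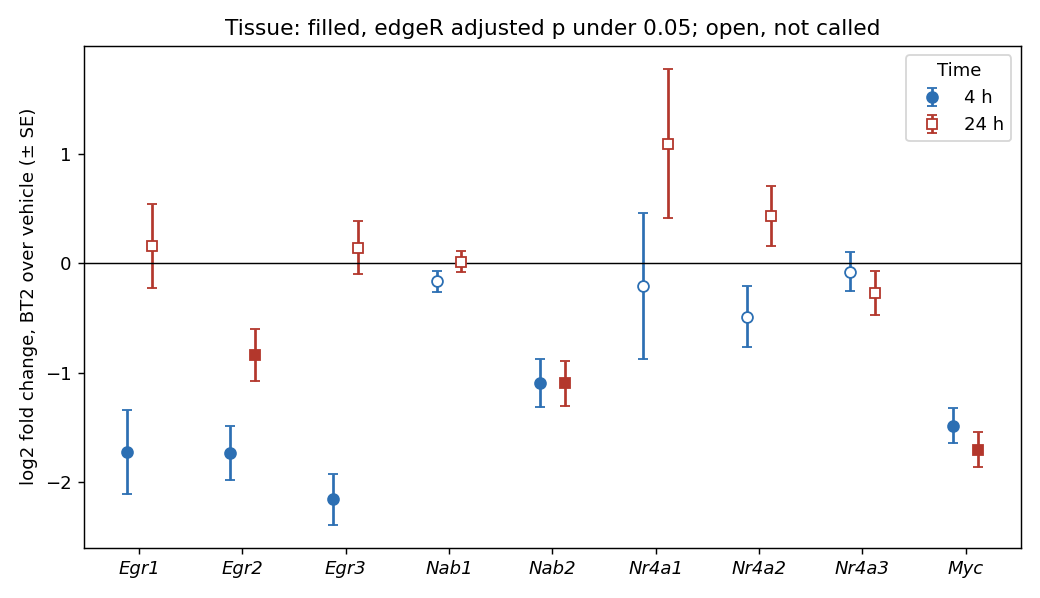
Log2 fold change of BT2 over vehicle in tissue (vertical axis, with SE bars) for each gene at 4 h (blue circles) and 24 h (red squares). Filled symbols passed an edgeR adjusted p under 0.05: Egr1, Egr2, Egr3, Nab2 and Myc at 4 h, and Egr2, Nab2 and Myc at 24 h.

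Whether the BT2 effect differed between the times was tested as the difference of both effects, 24 h minus 4 h. Only Egr3 was called among the 9 genes, with a difference of 2.3 ± 0.33 (edgeR adjusted p = 0.0186), where 4.72% of all genes tested were called higher. The difference was 1.89 ± 0.54 for Egr1 (edgeR adjusted p = 0.0811), 0.90 ± 0.34 for Egr2 (edgeR adjusted p = 0.145) and -0.22 ± 0.22 for Myc (edgeR adjusted p = 0.580). The Egr3 call was lost without BT2 4 h replicate 1 (0.0505) or 2 (0.0570), vehicle 24 h replicate 1 (0.0578) or 2 (0.0819), or BT2 24 h replicate 1 (0.0778), and without BT2 24 h replicate 2 the count of called genes among the 9 was 2, with Egr1 added at 2.38 (0.0251).

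Between 4 h and 24 h in vehicle, 6 of 9 genes fell and 0 rose, where 23.8% of all genes were called lower. Both 24 h libraries were below both 4 h libraries for 8 of 9 genes, against 37.7% of all genes. Egr1 fell by 3.81 ± 0.42 (edgeR adjusted p = 0.000489), 14.0-fold, Egr3 fell by 3.54 ± 0.25 (edgeR adjusted p = 9.18e-05), 11.7-fold, and Nr4a3 fell by 2.90 ± 0.19 (edgeR adjusted p = 8.46e-05), 7.48-fold. These were the steepest declines of the 9. Myc fell by 1.15 ± 0.16 (edgeR adjusted p = 0.000756), Nr4a2 by 1.10 ± 0.28 and Egr2 by 0.94 ± 0.23 (edgeR adjusted p = 0.0119 for both). The calls of Egr2 and Nr4a2 were lost without vehicle 4 h replicate 2 (0.0699 and 0.0697) or vehicle 24 h replicate 1 (0.0806 and 0.0792). Nr4a1 had a log2 fold change of -2.01 ± 0.70 (edgeR adjusted p = 0.0530), and it was called by DESeq2 (adjusted p = 0.0378), with only the vehicle groups in the fit (0.000825), and without BT2 4 h replicate 1 (0.0429) or 2 (0.0486) or BT2 24 h replicate 1 (0.0128) or 2 (0.0122). Nab1 was at -0.15 ± 0.10 (edgeR adjusted p = 0.234) and Nab2 at 0.07 ± 0.21 (edgeR adjusted p = 0.813).

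Under BT2, 4 of 9 genes fell from 4 h to 24 h and 0 rose, where 11.6% of all genes were called lower, and the same number did not overlap, against 32.5% of all genes. Nr4a3 fell by 3.10 ± 0.20 (edgeR adjusted p = 0.000436), Egr1 by 1.92 ± 0.39 (edgeR adjusted p = 0.0165), Myc by 1.36 ± 0.16 (edgeR adjusted p = 0.00290) and Egr3 by 1.24 ± 0.24 (edgeR adjusted p = 0.0119). Nr4a3 thus fell in both treatments, and Egr2, at -0.04 ± 0.25 (edgeR adjusted p = 0.917), was not called, and the difference from vehicle is the 0.90 ± 0.34 given above, which did not pass. The time and treatment comparisons share libraries. The Egr1 call was lost without the filter on low counts (0.0837) and without BT2 4 h replicate 1 (0.0550) or 2 (0.0659). Its value moved to -2.67 without BT2 24 h replicate 1. The Egr3 call was lost without BT2 4 h replicate 2 (0.0521) or BT2 24 h replicate 2 (0.0779), and without BT2 4 h replicate 2 the count was 2 of 9. The 4 h count of calls between treatments was likewise 2 without vehicle 4 h replicate 2 or BT2 4 h replicate 2 and 3 without BT2 4 h replicate 1.

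Cell type markers moved with these results. At 4 h, 5 of 8 neutrophil markers fell with BT2, and their summed level was 581 to 1820 CPM in vehicle and 195 to 295 CPM with BT2. Of other types at 4 h, 3 of 12 monocyte or macrophage and 2 of 8 smooth muscle markers fell and 0 rose. Of 7 lymphatic endothelial markers 2 fell and 1 rose, and 2 of 10 cardiomyocyte and 2 of 9 Schwann markers rose. The remaining types had at most 1 marker called in each direction. At 24 h, 1 of 8 neutrophil markers fell, and 7 of 12 monocyte or macrophage markers fell and 1 rose, with summed levels of 3336 to 4013 CPM in vehicle and 1244 to 1469 CPM with BT2. Over the same groups 9 of 10 cardiomyocyte markers rose, with sums of 23640 to 24360 CPM in vehicle and 40640 to 53140 CPM with BT2. Of 9 fibroblast markers, 4 rose and 1 fell, with sums of 3883 to 4305 CPM and 6116 to 6824 CPM. Among other types, 4 of 8 pericyte, 4 of 10 endothelial and 3 of 7 lymphatic endothelial markers rose, and 4 of 9 dendritic markers fell. Of 9 Schwann markers 4 rose and 1 fell, and of 8 smooth muscle markers 3 rose and 2 fell. Over all genes tested, 6.67% were called higher and 9.73% lower at 4 h, and 18.9% were called higher and 20.7% lower at 24 h. From 4 h to 24 h in vehicle, 6 of 8 neutrophil markers fell and 9 of 12 monocyte or macrophage markers rose. There, 23.8% of all genes tested were called lower and 23.3% higher. In that contrast 9 of 10 cardiomyocyte markers also fell, with sums of 64130 to 74430 CPM at 4 h and 23640 to 24360 CPM at 24 h, as did 6 of 10 endothelial markers. Their part in the levels of the 9 genes was not tested in tissue.

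Genes that share the early response, or that act upstream or downstream of it, were counted by list, beside medians near 0 over all genes tested. Of all genes tested, 6.67% were called higher and 9.73% lower at 4 h, and 18.9% higher and 20.7% lower at 24 h. A list count near these shares is not a result about that list. Of 35 other immediate early genes tested, 20 fell and 0 rose at 4 h, with a median log2 fold change of -1.07, and 12 fell and 0 rose at 24 h, with a median of -0.42. At 4 h, Ier2, a nuclear early response protein, fell from 214 ± 11.6 to 85.6 ± 4.62 CPM (mean ± SD; log2 -1.32 ± 0.16, edgeR adjusted p = 0.00919). Plk3, a stress-responsive kinase, fell by 1.44 ± 0.17 and Gadd45g, a growth arrest and stress gene, by 1.73 ± 0.21 (edgeR adjusted p = 0.00919 for both). At 24 h, Gadd45b fell by 1.04 ± 0.12 (edgeR adjusted p = 0.000859), Plk3 by 1.22 ± 0.17 (0.00158) and Ier5l by 1.38 ± 0.22 (0.00272).

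Of 23 regulators that act upstream of Egr and Nr4a transcription, 6 fell and 0 rose at 4 h (median -0.14), and 7 fell and 4 rose at 24 h (median -0.12). Mkl1, the actin-regulated coactivator of serum response factor, fell at 4 h from 53.8 ± 4.22 to 22.2 ± 4.30 CPM (log2 -1.29 ± 0.15, edgeR adjusted p = 0.00919). Elk3, an ETS partner of serum response factor, fell by 0.62 ± 0.10 (edgeR adjusted p = 0.0119). Hdac9, a class IIa histone deacetylase that represses MEF2, fell by 1.08 ± 0.19 at 4 h (edgeR adjusted p = 0.0133) and rose by 0.79 ± 0.18 at 24 h (edgeR adjusted p = 0.0106). Its relative Hdac5 rose by 0.63 ± 0.13 and the ETS factor Elk1 by 0.58 ± 0.12 at 24 h (edgeR adjusted p = 0.00733 and 0.00709). The kinase genes Map2k1 (-0.63 ± 0.10, edgeR adjusted p = 0.00216), Rps6ka1 (-1.12 ± 0.23, 0.00669) and Rps6ka3 (-0.38 ± 0.10, 0.0183), which encode MEK1 and the ribosomal S6 kinases RSK1 and RSK2, fell at 24 h. Srf itself, which encodes serum response factor, was at -0.44 at 4 h (edgeR adjusted p = 0.154) and -0.32 at 24 h (edgeR adjusted p = 0.225).

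Of 24 genes known as EGR1 targets and tested here, 15 fell and 0 rose at 4 h (median -0.89), and 11 fell and 1 rose at 24 h (median -0.95). Thbs1, the matricellular protein thrombospondin-1, fell by 1.77 ± 0.23 at 4 h and by 2.25 ± 0.24 at 24 h (edgeR adjusted p = 0.0106 and 0.000777). The adhesion molecule gene Icam1 fell by 0.87 ± 0.14 at 4 h (edgeR adjusted p = 0.0111) and the growth factor gene Tgfb1 by 0.97 ± 0.11 at 24 h (edgeR adjusted p = 0.000802). Vegfa, the endothelial growth factor, was the 1 gene that rose at 24 h, by 0.56 ± 0.14 (edgeR adjusted p = 0.0157). The 24 h log2 fold change of Egr1 itself was 0.16. Id3 and Ptgs2 stand in this list and among the early genes, and Srf among the early genes and the regulators.

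Of 29 genes known as MYC targets and tested here, 19 fell and 0 rose at 4 h (median -0.56), and 26 fell and 0 rose at 24 h (median -0.86). At 4 h, Bop1, a factor of ribosome assembly, fell by 0.93 ± 0.13 and Polr1b, an RNA polymerase I subunit, by 1.06 ± 0.15 (edgeR adjusted p = 0.0109 for both). Eif4e, the cap-binding initiation factor, fell by 0.64 ± 0.10 (edgeR adjusted p = 0.0110). At 24 h, the replication factor gene Mcm5 fell from 53.9 ± 2.70 to 17.1 ± 3.61 CPM (log2 -1.65 ± 0.16, edgeR adjusted p = 0.000555). Rrp12, of ribosomal RNA processing, fell by 1.41 ± 0.15 and Fbl, the nucleolar methyltransferase fibrillarin, by 1.30 ± 0.14 (edgeR adjusted p = 0.000715 and 0.000802). In the MYC, MAX and MXD network (15 tested), 4 fell and 1 rose at 4 h (median -0.14), and 2 fell and 3 rose at 24 h (median 0.08). At 4 h the MYC antagonist Mxd1 fell by 1.64 ± 0.32 (edgeR adjusted p = 0.0191), the deubiquitinase gene Usp28 by 0.55 ± 0.13 (0.0296) and Mlxip by 0.71 ± 0.18 (0.0371), while Mlxipl, the glucose-sensing factor ChREBP, rose by 0.73 ± 0.18 (0.0302). At 24 h the antagonist Mxi1 rose by 0.64 ± 0.11 (edgeR adjusted p = 0.00388), Usp28 by 0.61 ± 0.13 (0.00857) and Fbxw7, whose ubiquitin ligase degrades MYC, by 0.76 ± 0.18 (0.0111). The relative Mycl fell by 1.14 ± 0.26 (edgeR adjusted p = 0.0111) and Mxd3 by 1.13 ± 0.36 (0.0375).

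Of 9 muscle glucose metabolism genes known as NR4A1 targets in mouse, 1 rose and 0 fell at 4 h (median 0.31), and 6 rose and 0 fell at 24 h (median 1.25). Eno3, the muscle enolase, rose by 0.41 ± 0.11 at 4 h (edgeR adjusted p = 0.0435) and by 1.16 ± 0.11 at 24 h (edgeR adjusted p = 0.000655). The phosphofructokinase gene Pfkm rose by 1.42 ± 0.15 and the phosphoglycerate mutase gene Pgam2 by 1.29 ± 0.16 at 24 h (edgeR adjusted p = 0.000727 and 0.00116). Nr4a1 itself was not called, and its 2 BT2 libraries at 24 h lay on either side of vehicle. Cardiomyocyte markers rose in the same contrast, as given above, and their part in this list was not tested. Of 15 partners of NR4A and NAB proteins, 2 rose and 1 fell at 4 h (median -0.08), and 2 rose and 7 fell at 24 h (median -0.14). Rxrg, a retinoid X receptor, rose by 0.53 ± 0.10 at 4 h (edgeR adjusted p = 0.0177) and from 15.8 ± 0.211 to 59.1 ± 2.67 CPM at 24 h (log2 1.90 ± 0.11, edgeR adjusted p = 0.000248). The corepressor gene Ncor1 rose by 0.41 ± 0.11 (edgeR adjusted p = 0.0436) and the demethylase gene Kdm1a fell by 0.43 ± 0.10 (0.0278) at 4 h. At 24 h Rxrb rose by 0.50 ± 0.11 (edgeR adjusted p = 0.00809), and Hdac1 (by 0.73 ± 0.10, 0.00168), Mta2 (by 0.48 ± 0.08, 0.00350) and Mbd3 (by 0.47 ± 0.09, 0.00546), which encode subunits of the NuRD repressor complex, fell. Of the other NuRD genes in the list, Chd3 also fell, by 0.51 (edgeR adjusted p = 0.0055), whereas Chd4 was at 0.09 (0.499), Hdac2 at -0.01 (0.916) and Mta1 at -0.14 (0.225).

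**Figure D3:**
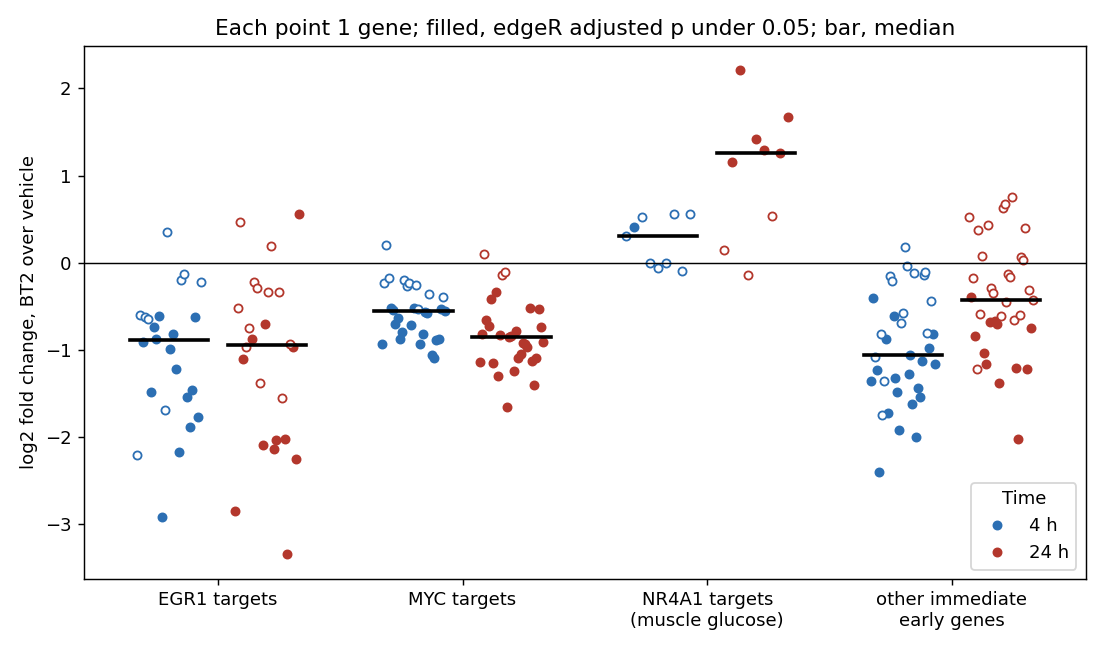
Log2 fold change of BT2 over vehicle in tissue (vertical axis) for single genes of 4 lists at 4 h (blue) and 24 h (red). Filled points passed an edgeR adjusted p under 0.05 and black bars are list medians, which lie at -0.89 and -0.95 for EGR1 targets, -0.56 and -0.86 for MYC targets, 0.31 and 1.25 for NR4A1 targets and -1.07 and -0.42 for other early genes.

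The pattern over the 8 tissue libraries was also compared between genes by Pearson's r of log2 CPM, as a description. Among the 9 genes, Egr1 was most like Egr3 (r = 0.972), and was at 0.908 with Nr4a3, whereas Nab2 and Nr4a1 were at -0.145. Among 10315 genes with a mean of at least 5 CPM, those most like Egr1 were Banf1 (0.995), Cd74 (0.991) and Btg2 (0.990), and those most like Egr3 were Ern1 (0.991), Hectd2 (0.988) and Zbtb20 (0.987). Nr4a3 was most like Dnaja2 (0.996), Mrps34 (0.993) and Rapgef1 (0.990). Nr4a1 was most like Trim72 (0.957), Smim7 (0.944) and Stk16 (0.944). Nab2 was like Hgs (0.986) and Trim27 (0.983). Myc was most like the nucleolar helicase gene Ddx21 (0.997), then Adck4 (0.995) and Rrp9 (0.993), of which Rrp9 also stands in the list of MYC targets. These libraries share the treatment and time groups, which also move r.

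Nuclei gave levels by cell class at 24 h, with 1 library per group and therefore no test. The vehicle library held 11540 barcodes and 45471510 UMIs and the BT2 library 10497 and 32624251, of which 11372 and 10324 nuclei were kept, with medians of 2465 and 2157 UMIs. The libraries shared 37 barcode sequences. Clusters made without the 9 genes and the other early genes were named from markers, and the 11 classes that reached 100 nuclei in both libraries were compared, while 8 of 23 clusters stayed unnamed. The unnamed clusters held 34.8% of vehicle UMIs and 14.9% of BT2 UMIs. Intervals are exact 95% Poisson intervals and cover counting error only, and free RNA was not subtracted.

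**Figure D4:**
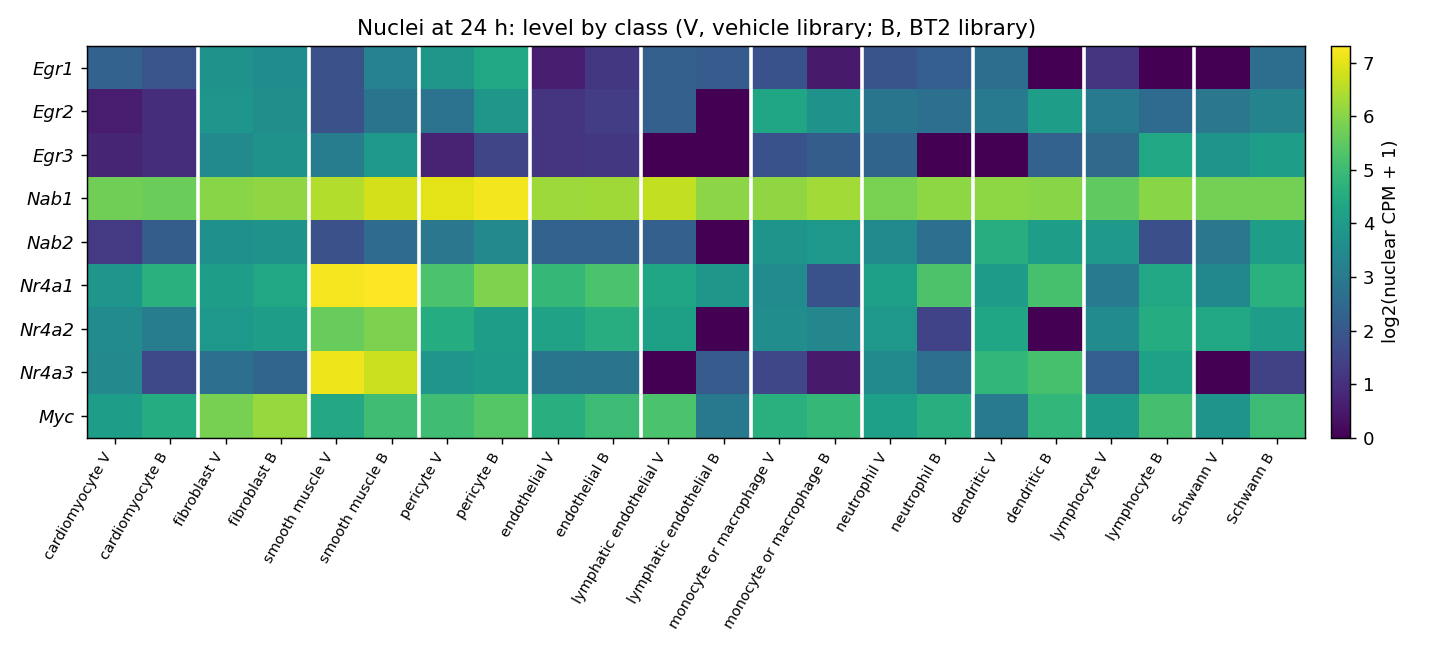
Level of each gene in nuclei at 24 h, as log2 of nuclear CPM plus 1 (colour), for 11 marker-named classes (columns) in the vehicle (V) and BT2 (B) library. Nr4a1 and Nr4a3 stand out in smooth muscle-like nuclei, Myc in fibroblast-like nuclei and Nab1 in pericyte-like nuclei.

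Among the 11 named classes, Nr4a1 and Nr4a3 were highest in smooth muscle-like nuclei in both libraries, of which there were 109 in vehicle and 203 with BT2. Nr4a1 was there at 149 CPM (113 to 192; 59 UMIs in 33 nuclei) in vehicle and 159 CPM (133 to 188; 131 UMIs) with BT2. The next named class, pericyte-like nuclei, was at 37.1 CPM (28.1 to 48.0) in vehicle, with no overlap of the intervals. The unnamed cluster 2, of 348 vehicle nuclei, had Nr4a1 at 93.5 CPM (71.7 to 119.9) in vehicle. That interval overlapped the one of smooth muscle-like nuclei. Nr4a3 was in smooth muscle-like nuclei at 139 CPM (105 to 181; 55 UMIs) in vehicle and 105 CPM (84.3 to 130; 87 UMIs, of which 14 came from 1 nucleus) with BT2. The unnamed cluster 22, of 28 nuclei, had Nr4a3 among its 10 leading genes and was not compared. The next named class was dendritic-like nuclei, at 27.8 CPM (15.9 to 45.1) in vehicle, also without overlap. Nr4a2 had the same top class, at 47.9 CPM (28.8 to 74.8) in vehicle, but its interval overlapped that of pericyte-like nuclei at 22.1 CPM (15.3 to 30.9).

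The EGR genes were low in nuclei, with 224, 385 and 184 UMIs of Egr1, Egr2 and Egr3 in the whole vehicle library. In the vehicle library Egr2 led in monocyte or macrophage-like nuclei, at 19.1 CPM (15.3 to 23.5), followed by fibroblast-like nuclei at 13.4 CPM (10.9 to 16.3), with overlapping intervals. In the BT2 library that class was the third, at 12.2 CPM (8.08 to 17.6), after dendritic-like (15.9 CPM, 4 UMIs) and pericyte-like nuclei (13.7 CPM), all with overlapping intervals. Egr2 was at 0.51 CPM (0.10 to 1.48) in cardiomyocyte-like nuclei of the vehicle library. Egr1 led in pericyte-like nuclei at 13.7 CPM (8.46 to 20.9) and fibroblast-like nuclei at 12.2 CPM (9.81 to 15), whose intervals overlapped. In the BT2 library pericyte-like nuclei were at 19.9 CPM (13.6 to 28.1) and fibroblast-like nuclei at 10.8 CPM (8.98 to 12.8), without overlap. Egr3 was at 10.2 CPM (8.02 to 12.7) in fibroblast-like nuclei of the vehicle library, where its top class, Schwann-like nuclei, rested on 4 UMIs. Nab1 was found in every class, from 44.9 CPM in lymphocyte-like to 127.5 CPM (110.3 to 147) in pericyte-like nuclei of the vehicle library. Nab2 led in dendritic-like nuclei of both libraries, at 22.6 CPM (12 to 38.6; 13 UMIs) in vehicle, with neighbours that overlapped. With BT2 that class was at 15.9 CPM (4.33 to 40.7) on 4 UMIs, beside Schwann-like nuclei at 15.7 CPM.

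Between the libraries, the ratio of BT2 to vehicle CPM over all nuclei was 1.05 (0.999 to 1.11) for Nab1, 1.11 (0.95 to 1.29) for Nab2, 1.08 (0.97 to 1.22) for Nr4a2, 0.94 (0.80 to 1.11) for Egr2 and 0.96 (0.83 to 1.12) for Nr4a3. These 5 intervals included 1. Egr1 was at 1.46 (1.21 to 1.76), Egr3 at 1.73 (1.42 to 2.11) and Nr4a1 at 1.28 (1.18 to 1.40). With the classes of the BT2 library weighted to the vehicle mix, an alternative chosen after seeing the data, these 3 ratios were 1.29, 1.34 and 1.27. Nab2, which was lower with BT2 in tissue at 24 h, thus had a nuclear ratio whose interval included 1.

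Myc was higher in the BT2 nuclei, at 45.7 CPM (43.4 to 48.0) against 28.9 CPM (27.3 to 30.5), a ratio of 1.58 (1.47 to 1.71), while in tissue at the same time it was 3.26-fold lower with BT2. The nuclear and tissue values come from different RNA and different libraries, and why their directions differ was not tested. Which nuclear library is BT2 rests on its label alone, and a swap of the labels would turn every ratio given here. By those labels, neutrophil-like nuclei were 7.26% of nuclei in vehicle and 2.84% with BT2, monocyte or macrophage-like nuclei 17.3% and 11.9%, and fibroblast-like nuclei 14.7% and 30.5%. The summed tissue markers of these 3 types lay in the same directions at 24 h, with neutrophil sums of 217 to 312 CPM in vehicle and 100.0 to 183 CPM with BT2. So did those of cardiomyocytes, pericytes and lymphocytes. Endothelial-like nuclei went the other way by number, at 19.9% and 16.9% of nuclei, but held 12.9% and 14.3% of UMIs. Their tissue sums were 1432 to 1641 CPM in vehicle and 2016 to 2066 CPM with BT2. By summed markers, lymphatic endothelial, smooth muscle and Schwann types also went opposite ways in nuclei and tissue, and the dendritic sums overlapped. Sums follow the highest marker, which was Des for smooth muscle (median 3535 CPM) and Ncam1 for Schwann (median 134 CPM). By the median log2 fold change of single markers at 24 h, Schwann was at 0.93, the same direction as in nuclei, and smooth muscle at -0.09. At the vehicle mix of classes the Myc ratio was 1.32. Fibroblast-like nuclei, the top class for Myc in both libraries, held 16.6% of UMIs in vehicle and 36.4% with BT2, and 31.5% and 57.7% of the Myc UMIs. The unnamed clusters held 32.8% and 11.7% of the Myc UMIs. Within fibroblast-like nuclei Myc was at 55.1 CPM (49.9 to 60.6; 411 UMIs) in vehicle and 72.3 CPM (67.6 to 77.4; 853 UMIs) with BT2, a ratio of 1.31 (1.17 to 1.48). The class joined cluster 11, led by Ltbp2, Adam12, Bnc2 and Postn (1167 and 1607 nuclei), and cluster 9, led by Aox3 and Scara5 (508 and 1538 nuclei). The Myc ratio was 1.45 (1.28 to 1.65) in cluster 11 and 0.90 (0.61 to 1.34) in cluster 9. In cardiomyocyte-like nuclei it was 1.38 (1.03 to 1.86) and in endothelial-like nuclei 1.33 (1.05 to 1.69). In lymphatic endothelial-like nuclei Myc had 20 UMIs in vehicle and 2 with BT2, a ratio of 0.18 (0.021 to 0.75).

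Ratios within single classes lay both above and below 1. Nr4a3 in cardiomyocyte-like nuclei had 59 UMIs in 32 of 808 vehicle nuclei and 9 UMIs in 8 of 809 BT2 nuclei. This was 9.99 CPM (7.60 to 12.9) against 2.08 CPM (0.95 to 3.95), 4.80-fold lower with BT2, at a ratio of 0.21 (0.091 to 0.42). In the same nuclei Nr4a1 had a ratio of 1.78 (1.32 to 2.42), so the ratios of these relatives lay on either side of 1. In monocyte or macrophage-like nuclei Nr4a1 had 49 UMIs in vehicle and 6 with BT2, a ratio of 0.25 (0.086 to 0.57), and 48 and 5 of these were in cluster 7, led by Spp1, Fam20c and Tmem26. Egr2 there had 88 and 28 UMIs, a ratio of 0.64 (0.40 to 0.98), and within cluster 7 the ratio was 0.68 (0.41 to 1.08). The unnamed cluster 2 scored highest for monocyte or macrophage markers. It had 62 and 29 UMIs of Nr4a1, a ratio of 0.96 (0.60 to 1.52). In neutrophil-like nuclei Nr4a1 was at 2.27 (1.2 to 4.26) and Nr4a2 at 0.13 (0.0031 to 0.81), the latter on 20 and 1 UMIs. In pericyte-like nuclei Nr4a1 was at 1.60 (1.14 to 2.26) and Egr2 at 2.34 (1.04 to 5.77). All 9 genes were compared in all 11 classes, and these intervals carry no adjustment for that number.

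**Figure D5:**
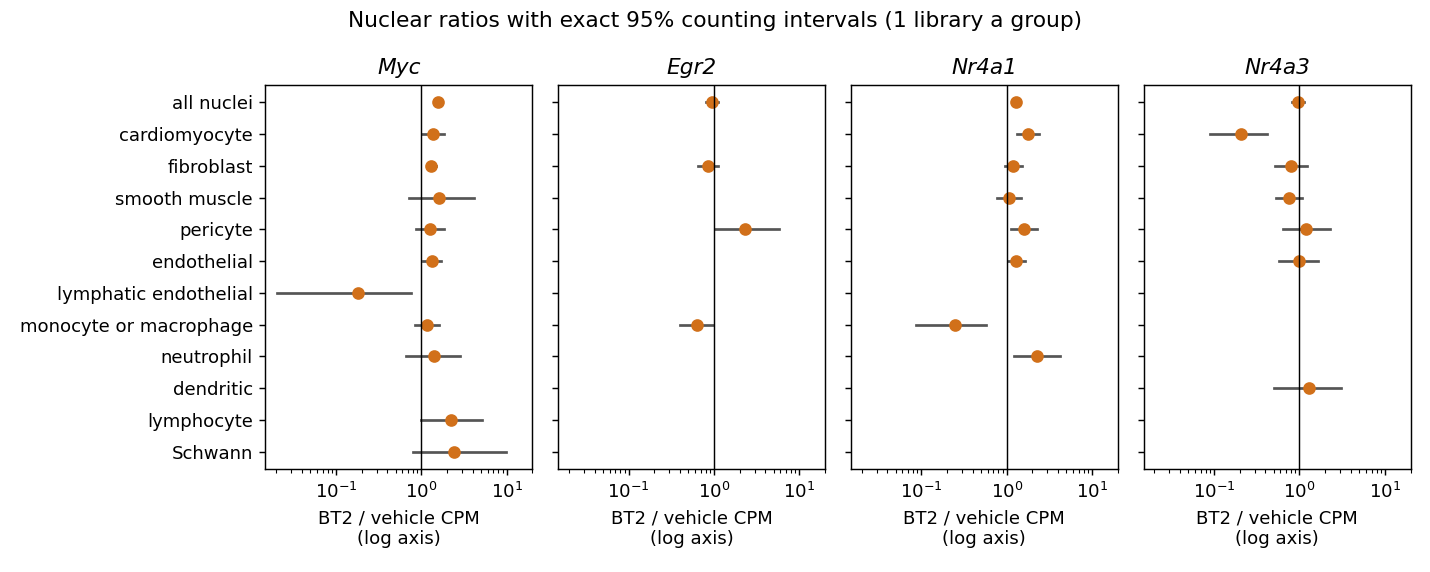
Ratio of BT2 to vehicle nuclear CPM at 24 h (horizontal log axis) for Myc, Egr2, Nr4a1 and Nr4a3 over all nuclei and in classes where both libraries together held at least 20 UMIs. Points are ratios of 1 library to 1 library and lines are exact 95% counting intervals. Intervals wholly below 1 are those of Nr4a3 in cardiomyocyte-like nuclei (0.21) and Myc in lymphatic endothelial-like nuclei (0.18). In monocyte or macrophage-like nuclei, so are those of Nr4a1 (0.25) and Egr2 (0.64).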

How the data were processed

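Tissue RNA was poly(A)-selected and made into stranded libraries, per the labels' protocols. The submitters' processing notes name Trim Galore, STAR, featureCounts, Cell Ranger and the build Rnor_6.0. The nuclear matrices name Cell Ranger 8.0.1, per the file headers. The authors deposited unnormalized gene counts for tissue and UMI counts for nuclei. How strand and intronic reads were handled, and which annotation was used, was not stated in the sources used here, so reads of a gene and an antisense partner cannot be told apart.

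All 8 tissue libraries were fitted with edgeR 4.0.16 in R 4.3.3 (filterByExpr, TMM, robust quasi-likelihood, 1 mean per group, 4 residual degrees of freedom, two-sided tests), and DESeq2 1.42.0 was an alternative. The fit was tested on simulated data. List genes were named by the smallest p, at most 3 in each direction per time; like genes by the highest r over log2 CPM with a prior count of 3. Some genes that these rules name are not reported here. The 9 genes, lists and markers were chosen with earlier results of these data known. Srm, Tnf and Egr4 did not pass the filter and Miz1 was not matched.

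Barcodes under 500 UMIs or 200 genes, or over 5% mitochondrial UMIs, were dropped and the rest clustered with scanpy 1.11.5 (2000 variable genes, 30 components, 15 neighbours, resolution 0.5). Clusters were named at a marker score of at least 1, a lead of 0.5, 3 raised markers and a median doublet score of at most 0.1, limits set after the clusters were seen. Scrublet marked 1 and 0 nuclei, so it removed no doublets to speak of. Alternatives were other scalings, no filter, a replicate block, leaving out each library, other limits on nuclei and resolution 1.0.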

Additional observations from a re-analysis of the deposited data

Results flagged for a closer look

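Egr3 stood out because its BT2 effect differed between the times by a test of the difference itself. That call was kept in only 8 of 13 alternatives, and 4.72% of all genes tested were called higher in this contrast. The log2 fold change of BT2 over vehicle was -2.16 at 4 h and 0.14 at 24 h, a difference of 2.3 ± 0.33 (edgeR adjusted p = 0.0186), and the vehicle level had by then fallen from a mean of 89.2 CPM to 7.66 CPM. The neutrophil marker sum in vehicle, 581 to 1820 CPM at 4 h and 217 to 312 CPM at 24 h, moved with it. So did the cardiomyocyte sum, 64130 to 74430 CPM at 4 h and 23640 to 24360 CPM at 24 h. The endothelial sum, 2338 to 2849 CPM and 1432 to 1641 CPM, and the fibroblast sum fell as well. Monocyte or macrophage and Schwann sums rose, although 1 of 9 Schwann markers was called higher and their median log2 fold change was -0.34. The part of these cell types was not tested. With 2 libraries per group, single libraries that stand apart were not looked for by a formal rule.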

How the results depend on the processing

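Of the values recomputed under alternatives, 817 single values and 141 counts or nuclear values kept their direction and side of the threshold, or stayed within the spread used; 27 calls were lost, 8 were gained, 25 values reversed and 33 moved. Values near 0 reversed for Nab1 at 24 h with DESeq2 (-0.0020), Egr2 from 4 h to 24 h in BT2 with upper quartile factors (0.047) and the Nab2 difference with the replicate block (0.012). Leaving out each library in turn gave ranges that crossed 0 at 4 h for Nr4a1 (-1.11 to 0.34) and Nr4a3 (-0.26 to 0.094); at 24 h for Egr1 (-0.59 to 0.65), Egr3 (-0.043 to 0.30), Nab1 (-0.066 to 0.082), Nr4a1 (-0.28 to 1.79) and Nr4a2 (-0.0080 to 0.77); in the difference for Nab2 (-0.25 to 0.28), Nr4a1 (-0.090 to 2.21) and Nr4a3 (-0.48 to 0.028); over time in vehicle for Nab2 (-0.080 to 0.21); and over time in BT2 for Egr2 (-0.36 to 0.32), Nab1 (-0.042 to 0.094), Nab2 (-0.18 to 0.36), Nr4a1 (-2.07 to 0.20) and Nr4a2 (-0.61 to 0.15). The count of the 9 genes called ranged from 2 to 5 at 4 h, 2 to 3 at 24 h, 0 to 2 in the difference, 4 to 7 in vehicle and 2 to 4 in BT2. Over all genes it ranged from 112 to 2796 at 4 h (2495 with all libraries), 2982 to 6522 at 24 h (6016), 0 to 1443 in the difference (1087), 4629 to 7100 in vehicle (7162) and 1025 to 4146 in BT2 (3548). Over all genes, 621 were called at 4 h with only the groups compared in the fit, which has fewer samples, and 1819 in the difference without the filter on low counts, where the cause was not tested. At the vehicle mix of classes the nuclear ratio was 1.34 for Egr3 and 1.32 for Myc. Same-numbered libraries did not deviate together (correlations from -0.0464 to 0.0965). With 2 libraries per group this cannot exclude that the numbers pair samples, and whether they do is not known. The replicate block changed no count of the 9 genes. No alternative changed depth; Nr4a2 rests on 75 to 158 counts per tissue library, and many nuclear values rest on few UMIs.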

Other observations

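The BT2 libraries at 24 h differed in the same direction for most of the early genes. Replicate 1 was above replicate 2 for Nr4a1 (78.4 and 18.8 CPM), Egr1 (63.4 and 27.0 CPM), Nr4a2 (7.14 and 4.20 CPM), Egr2, Egr3, Nr4a3 and Nab1, and below it for Nab2 (9.58 and 13.1 CPM) and Myc (24.4 and 33.4 CPM). In the unnamed nuclear cluster 2, led by P2ry10, Adgre4 and Treml4, Nr4a1 was at 93.5 CPM in the vehicle library, on 62 UMIs. The unnamed cluster 21, led by heat shock genes, held 22 vehicle and 131 BT2 nuclei.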
